A study of Mus musculus with 6 samples.

Results

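This account follows 36 genes through which cells make, take up, store and remove sterols, in mouse mammary tumours grown from 4T1 cells with and without knockdown (KD) of Bptf. A gene counted as measured where at least 1 probe set of the array was annotated to it alone. That held for 32 of the 36, with 60 probe sets among them, out of 12393 genes on the array with a probe set of their own. Acat2, Insig1, Nr1h2 and Soat1 had none and were not analysed here. The brightest probe set stood for each gene, and genes whose brightest probe set lay in the lowest 30% of all probe sets (a log2 value up to 6.09) were left out of the tests. All 32 measured genes passed this filter, which kept 9248 genes in all.

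The control group was 3 tumours from 4T1 cells and the Bptf KD group 3 tumours from 4T1 cells carrying short hairpin RNAs against Bptf, delivered with the retrovirus MMLV. Bptf is the largest subunit of the chromatin remodelling complex NURF. Every tumour grew from 10000 cells in the fourth mammary fat pad of an NSG mouse, labelled Ifrg2r -/-, and was taken on day 21. The hosts have no mature lymphocytes of their own (T, B or natural killer cells). The sources used here do not give what the control cells carried, the age of the mice or whether the KD cells were 1 clone. Each array holds the RNA of a whole piece of tumour with its stroma, so that fewer cells of a type and less RNA per cell cannot be told apart.

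Cells build sterols from acetyl-CoA. The mevalonate part of the pathway makes isoprenoid units and joins them into farnesyl diphosphate, squalene synthase and squalene epoxidase commit these to sterols, and the post-squalene enzymes shape lanosterol into cholesterol. When membranes of the endoplasmic reticulum hold little sterol, Scap carries the transcription factor Srebf2 (SREBP2) to the Golgi, where it is cut free to switch on the genes of synthesis and uptake. Insig proteins hold Scap back when sterol is plentiful, and oxysterols then activate the nuclear receptors LXR (Nr1h2 and Nr1h3), which raise the export pumps Abca1 and Abcg1 and the ubiquitin ligase Mylip.

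Some facts of the whole series bear on these genes. Bptf itself stood at log2 values of 10.69, 9.77 and 10.59 in the 3 controls and at 9.60, 9.56 and 9.99 in the 3 Bptf KD tumours (difference -0.63, SE 0.27, limma adjusted p = 0.371), so the second control lay inside the Bptf KD range. That tumour is called the tumour labelled control 2. It also had the highest mean of the skeletal muscle list (11.9, against 9.13 and 6.40 in controls 1 and 3) and of the keratinocyte list (10.3, against 7.17 and 7.40), and results are given with and without it. The 6 epithelial markers were all above the dim level, with list means from 11.1 to 11.9 over the 6 tumours. Every muscle marker (10) and keratinocyte marker (4 tested of 6) had a negative difference. All 10 adipocyte markers tested, of 12 listed, had negative differences (control list means of 9.69 to 10.6, Bptf KD list means of 6.84 to 7.77), as did all 10 fibroblast markers (11.9 to 12.1 and 10.8 to 11.1). Macrophage list means overlapped, at 11.2 to 11.7 and 11.4 to 11.7, with 8 of 10 markers positive.

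Of the 32 sterol genes, limma called 0 between Bptf KD and control tumours at an adjusted p under 0.05, where it called 0.811% of all 9248 genes. With no adjustment, p was under 0.05 for 3 lower members (Scarb1, Lrp1 and Abca1; 5.82% of all genes were lower at that p) and 1 higher member (Mylip; 7.66%), 12.5% of the members against 13.5% of all genes. The groups did not overlap in 5 members, these 4 and Insig2, or 15.6% against 20.0% of all genes. The 3 apart and lower compare with 8.17% of all genes and the 2 apart and higher with 11.8%. The share of members in these counts was thus near that of all genes. Differences (log2, Bptf KD minus control) ran from -0.60 to 0.44, with a median of -0.12 beside 0.060 over all genes. Of the 32, 20 were negative (62.5%, against 40.4% of all genes). Without the tumour labelled control 2 limma called 2 members, Scarb1 and Hsd17b7, both lower, where it called 4.46% of all genes, and 2.52% as lower. In that setting 21 members were negative, against 44.0% of all genes.

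**Figure D1:**
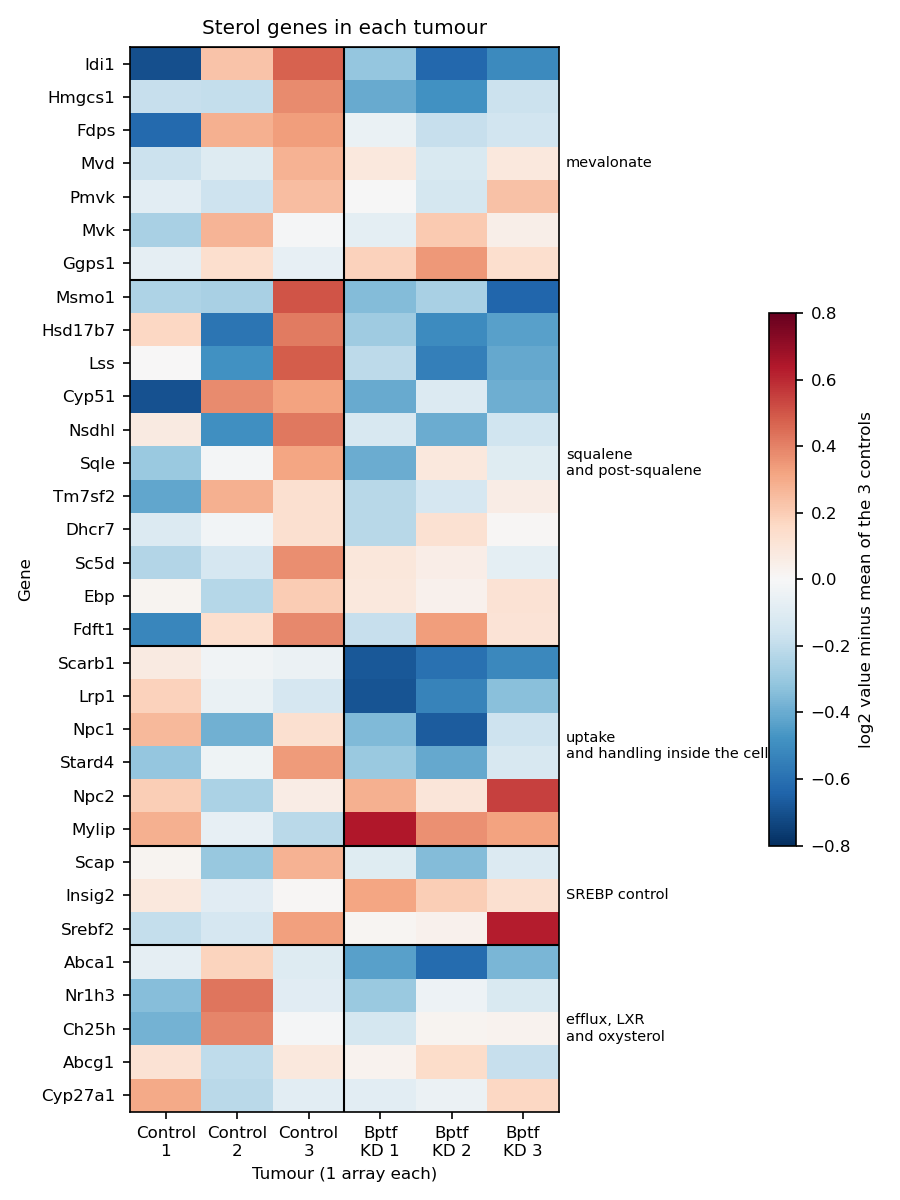
Log2 value of each of the 32 measured sterol genes (rows, by class) in each of the 6 tumours (columns), as the difference from the mean of the 3 controls (colour scale, log2). Scarb1, Lrp1 and Abca1 are low in all 3 Bptf KD tumours, while most enzymes of synthesis are high in control 3 and vary more among the controls than among the Bptf KD tumours.

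**Figure D2:**
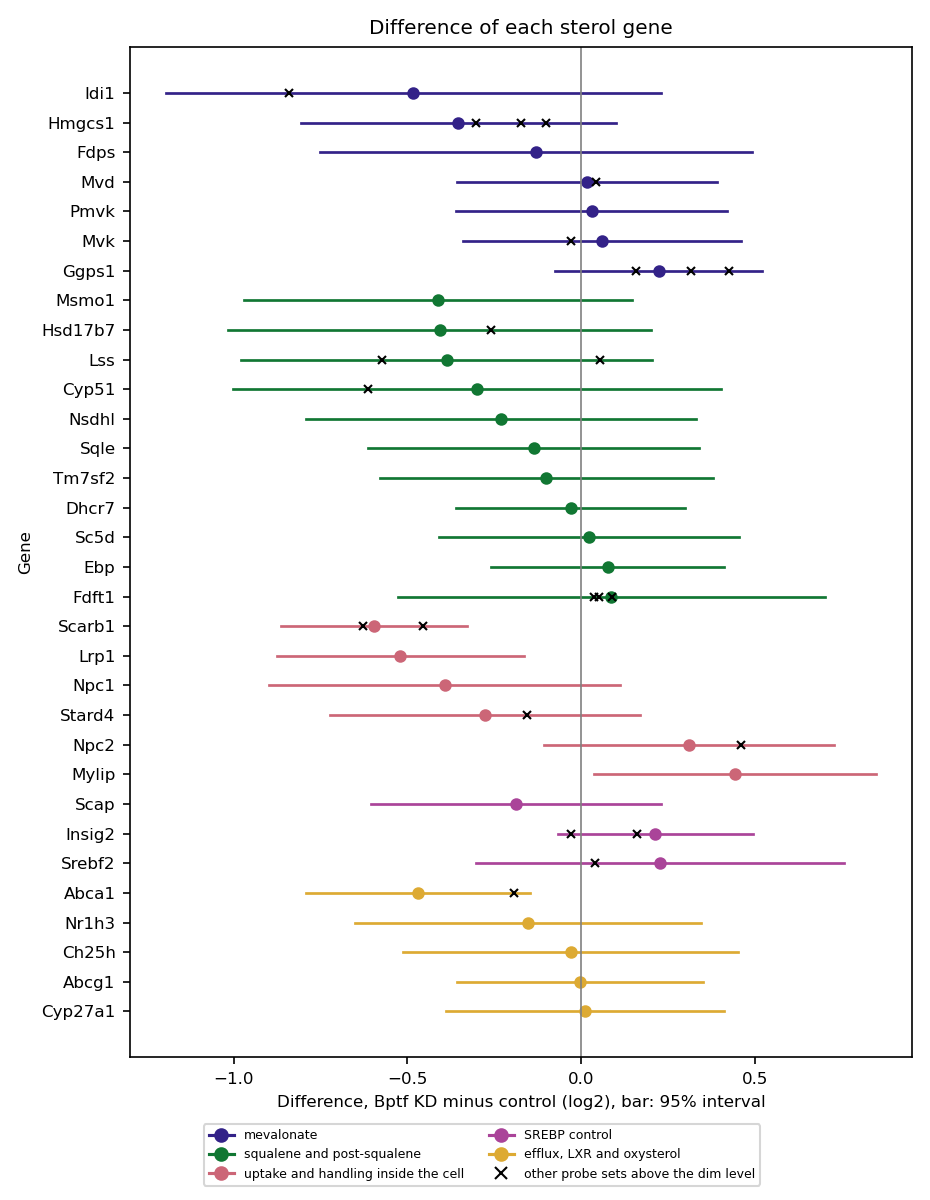
Difference between Bptf KD and control tumours (horizontal axis, log2) for each sterol gene, as a point with its 95% interval from limma, coloured by class. Crosses mark the gene's other probe sets above the dim level. The intervals of Scarb1, Lrp1, Abca1 and Mylip leave out 0 before adjustment over all genes, and those of all 18 enzymes of synthesis include it.

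On the probe set that stood for each gene, the 2 largest differences among the members were in receptors, Scarb1 and Lrp1. This order depended on the probe set. With the mean over a gene's probe sets, Idi1 (-0.66) came before Scarb1 (-0.56) and Lrp1 (-0.52). With the probe set of largest SD, Idi1 (-0.84) came first, and Cyp51 (-0.61) and Lss (-0.57) also came before Lrp1 (-0.52). Scarb1 is the receptor SR-B1, through which cells exchange cholesterol with high-density lipoprotein. It read 10.00, 9.90 and 9.88 in controls 1, 2 and 3 and 9.25, 9.33 and 9.41 in Bptf KD tumours 1, 2 and 3. Every Bptf KD tumour lay below every control, and the spread within each group was small (9.93 ± 0.064 and 9.33 ± 0.080, SD, n = 3 each). Scarb1 was thus 1.51-fold lower (difference -0.60, SE 0.11, 95% interval -0.86 to -0.33), and this missed the threshold over all genes (limma adjusted p = 0.0804). Its exact two-sided permutation p was 0.1, the smallest that 3 tumours against 3 can give. All 3 of its probe sets separated the groups, with differences from -0.63 to -0.46. Without the tumour labelled control 2 the difference was -0.61 and passed (limma adjusted p = 0.0374, with 0.0374 to 0.304 as its range over the alternatives). That tumour had the middle level of Scarb1 among the controls.

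Lrp1, a large receptor that takes up remnant lipoproteins and many other ligands, read 10.72, 10.48 and 10.40 in the controls and 9.84, 10.00 and 10.20 in the Bptf KD tumours. The groups did not overlap, and the nearest pair was control 3 and Bptf KD 3. The difference was -0.52 (SE 0.15, 95% interval -0.87 to -0.17, a level 1.43-fold lower), with limma adjusted p = 0.210, and it stayed between -0.61 and -0.43 over all alternatives. Mylip marks lipoprotein receptors for breakdown and is induced by LXR. Its levels were 10.14, 9.79 and 9.64 in the controls and 10.50, 10.22 and 10.18 in the Bptf KD tumours. Here each Bptf KD tumour was above each control, though control 1 was only just below Bptf KD 3. The difference was 0.44 (SE 0.17, a level 1.36-fold higher, limma adjusted p = 0.340). Lrp1 and Mylip each had 1 probe set.

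Inside the cell, Npc1 and Npc2 pass cholesterol out of the lysosome. Their differences had opposite signs, and neither passed. Npc1, the membrane protein, read 8.27, 7.63 and 8.14 in the controls and 7.66, 7.35 and 7.85 in the Bptf KD tumours (difference -0.39, SE 0.21, limma adjusted p = 0.501). The overlap came from the tumour labelled control 2, the lowest of the controls, and without it the difference was -0.59 (limma adjusted p = 0.0862, with a range over the alternatives of 0.0862 to 0.868). Npc2, the soluble partner, read 13.26, 12.81 and 13.12 against 13.35, 13.16 and 13.61 (difference 0.31, SE 0.18, limma adjusted p = 0.520). Its second probe set gave 0.46. Stard4, a soluble sterol carrier controlled by SREBP2, differed by -0.28 (SE 0.19, limma adjusted p = 0.606), and by -0.16 on its second probe set. Over the 6 members of uptake and handling tested, of 7 listed, the median difference was -0.34, with 4 negative and 2 positive.

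Abca1, the pump that loads cholesterol onto lipid-poor apolipoprotein particles, was the member of the efflux class with the largest difference. It read 11.68, 11.93 and 11.65 in the controls and 11.32, 11.14 and 11.39 in the Bptf KD tumours. All Bptf KD tumours lay below all controls, with means of 11.75 ± 0.15 and 11.28 ± 0.13 (SD, n = 3 each). The difference was -0.47 (SE 0.14, 95% interval -0.79 to -0.15, a level 1.39-fold lower, limma adjusted p = 0.211). Its second probe set above the dim level, close to that level in all tumours, gave -0.19 with overlapping groups. The one below the dim level gave -0.020, and the mean of all 3 gave -0.23. Without the tumour labelled control 2, the highest control, the difference was -0.38.

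The other efflux genes had overlapping groups. Abcg1, the pump that moves cholesterol to mature high-density lipoprotein and, like Abca1, a target of LXR, read 8.88, 8.56 and 8.85 in the controls and 8.79, 8.91 and 8.58 in the Bptf KD tumours. These are 2 overlapping groups with a difference of -0.0033 (SE 0.15, 95% interval -0.36 to 0.35, limma adjusted p = 0.995). The interval leaves out the -0.47 fitted for Abca1 but overlaps the 95% interval of Abca1 (-0.79 to -0.15). Whether the 2 genes differed from each other was not tested. Nr1h3 (LXR alpha) read 6.65, 7.42 and 6.90 against 6.69, 6.95 and 6.87 (difference -0.15, SE 0.21, limma adjusted p = 0.819). The tumour labelled control 2 was its highest sample, and without that tumour the sign turned (0.062). Ch25h, which makes the oxysterol 25-hydroxycholesterol, had the same tumour on top (9.0, 9.77 and 9.37 in the controls against 9.24, 9.40 and 9.41). Its difference was -0.030 with all tumours and 0.17 without that one. Cyp27a1, which makes 27-hydroxycholesterol, differed by 0.010 (SE 0.17). Of the 5 efflux, LXR and oxysterol genes tested, 4 were negative, with a median of -0.030.

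**Figure D3:**
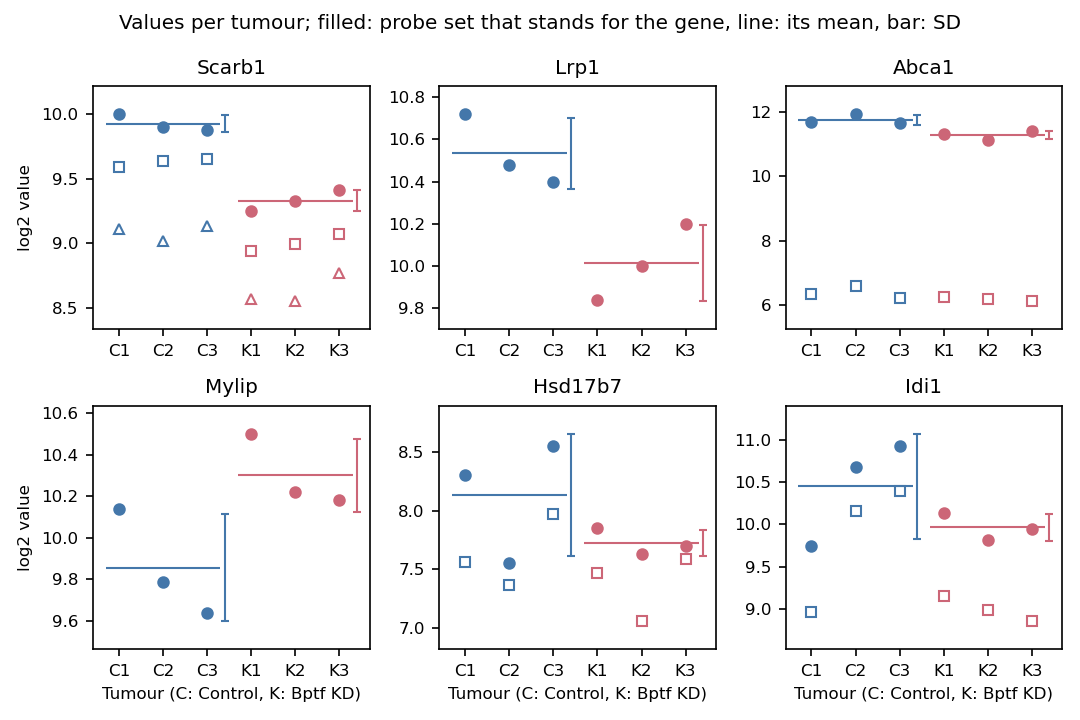
Log2 values of 6 sterol genes in each tumour (C1 to C3, controls; K1 to K3, Bptf KD tumours). Filled symbols are the probe set that stands for the gene, open symbols its other probe sets above the dim level, lines the group means and bars the SD (n = 3). By the filled symbols, Scarb1, Lrp1 and Abca1 are lower and Mylip higher in every Bptf KD tumour than in every control, while Hsd17b7 and Idi1 overlap because of 1 control each. Among the open symbols, only those of Scarb1 separate the groups.

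The adipocyte and fibroblast lists had median differences of -2.75 and -0.90 between the same groups as Scarb1, Lrp1 and Abca1, and their part in these differences was not tested. The macrophage list, whose cells carry much Abca1, Lrp1 and Ch25h, had a median difference of 0.21 with list means that overlapped between the groups, and its part was not tested either.

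Genes of the sensor that controls synthesis showed small differences. Srebf2 read 7.41, 7.47 and 7.93 in the controls and 7.62, 7.64 and 8.23 in the Bptf KD tumours (difference 0.23, SE 0.22, limma adjusted p = 0.731). Its highest value was in Bptf KD 3, and without that tumour the difference was 0.027. The second probe set of Srebf2 gave 0.040 with all tumours. Scap, the escort, read 9.60, 9.28 and 9.86 against 9.48, 9.23 and 9.47 (difference -0.19, SE 0.18, limma adjusted p = 0.717). Insig2, which retains Scap, read 10.29, 10.11 and 10.21 against 10.52, 10.40 and 10.33. Each Bptf KD tumour stood above each control by at least a small margin, with a difference of 0.21 (SE 0.12, limma adjusted p = 0.509). This depended on the probe set, since its other 2 gave 0.16 and -0.030 with overlapping groups. Array levels are of messenger RNA and do not show how much SREBP2 was cut and active.

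Enzymes of synthesis were tested for 18 of 19 genes. None of the 18 passed the threshold by limma, where 0.811% of all genes did. Before adjustment 0 had p under 0.05, against 13.5% of all genes. The groups were apart in 0, against 20.0% of all genes. Of the 18, 11 were negative (61.1%, against 40.4% of all genes), with a median of -0.12. Promoter stretches of 3 of them, Hmgcs1, Idi1 and Hsd17b7, are shown because the enzyme genes held the NF-Y box more often than genes at large. These 3 had negative differences but were not the 3 largest. Msmo1 (-0.41) and Lss (-0.39) had larger negative differences than Hmgcs1 (-0.35). Their stretches also held the NF-Y box, without the sterol element core found in Hmgcs1, and are not shown. The stretch of Abca1, an efflux gene, is set beside those of the 3 enzymes shown. RefSeq start sites were matched for 29 of the 36 genes. Each stretch is the 250 bases before the start site in GRCm38.p6, on the gene's own strand. Capitals mark, on either strand, the core of the sterol regulatory element (TCACCCCAC, and its shorter form CACCCCAC, which overlaps it), the NF-Y box CCAAT, the GC box GGGCGG and the E box CACGTG. The stretches lie at chr13:119690101-119690350 (plus strand) for Hmgcs1, chr13:8885356-8885605 (plus strand) for Idi1, chr1:169969206-169969455 (minus strand) for Hsd17b7 and chr4:53159896-53160145 (minus strand) for Abca1.
Hmgcs1: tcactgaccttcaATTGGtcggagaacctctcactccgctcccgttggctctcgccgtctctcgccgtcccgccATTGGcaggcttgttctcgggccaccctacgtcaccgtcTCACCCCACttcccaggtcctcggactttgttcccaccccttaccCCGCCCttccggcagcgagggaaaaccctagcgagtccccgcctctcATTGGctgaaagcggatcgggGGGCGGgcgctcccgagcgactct
Idi1: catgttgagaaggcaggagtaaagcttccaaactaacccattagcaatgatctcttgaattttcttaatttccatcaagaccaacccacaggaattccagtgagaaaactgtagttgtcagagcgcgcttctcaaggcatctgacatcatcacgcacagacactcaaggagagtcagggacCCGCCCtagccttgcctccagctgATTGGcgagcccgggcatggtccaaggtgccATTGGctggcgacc
Hsd17b7: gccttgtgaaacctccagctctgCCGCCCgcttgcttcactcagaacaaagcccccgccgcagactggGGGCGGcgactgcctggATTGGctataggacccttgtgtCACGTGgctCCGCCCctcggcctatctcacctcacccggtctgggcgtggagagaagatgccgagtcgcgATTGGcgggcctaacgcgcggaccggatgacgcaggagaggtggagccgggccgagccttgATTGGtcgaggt
Abca1: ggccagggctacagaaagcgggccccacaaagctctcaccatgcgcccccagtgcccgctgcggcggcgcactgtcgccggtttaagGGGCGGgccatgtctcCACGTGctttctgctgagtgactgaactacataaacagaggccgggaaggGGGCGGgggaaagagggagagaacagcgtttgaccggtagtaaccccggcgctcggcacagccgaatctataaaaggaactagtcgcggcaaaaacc

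The NF-Y box, bound by a factor that works beside SREBP2, was in 15 of 19 stretches of the 16 enzyme genes matched (78.9%), against 34.7% of the 9630 stretches of all genes tested. The stretch of Abca1 holds none, but genes outside synthesis also held the box, among them Cyp27a1 of the efflux class, Mylip, Npc2 and Srebf2. Over all members matched it was in 22 of 29 genes (61.1% of stretches). The GC box was in 78.9% of enzyme stretches and 57.3% of those of tested genes. The longer sterol element core was in the stretch of Hmgcs1 alone among the members, and in 0.509% of stretches of tested genes. The shorter form was in 10.5% of enzyme stretches, those of Hmgcs1 and Acat2, and in 2.87% of stretches of tested genes, and the E box in 15.8% and 8.13%. A match is a description of letters and not a site in use.

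In the mevalonate part, 7 of 8 genes were tested, with a median difference of 0.017, 3 negative and 4 positive. Hmgcs1, which makes the precursor of mevalonate and is a classical SREBP2 target, read 11.25, 11.24 and 11.81 in the controls and 11.03, 10.95 and 11.26 in the Bptf KD tumours. Bptf KD 3 lay just above controls 1 and 2, so the groups overlapped, with a difference of -0.35 (SE 0.19, 95% interval -0.81 to 0.10, limma adjusted p = 0.501), and its 4 probe sets ran from -0.35 to -0.10. Without control 3 the difference was -0.17. Idi1, which interconverts the isoprenoid units, read 9.75, 10.68 and 10.92 against 10.14, 9.82 and 9.94. Control 1 lay below the whole Bptf KD range while the other controls lay above it. The difference was -0.48 (SE 0.30, limma adjusted p = 0.568), and -0.84 on its second probe set. Without control 1 it was -0.83 on the first (limma adjusted p = 0.102, the lowest of a range over the alternatives up to 0.866), and without control 3 it was -0.25.

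Fdps, which joins the units into farnesyl diphosphate, followed the same order among controls, at 8.68, 9.59 and 9.64 against 9.25, 9.12 and 9.15 in the Bptf KD tumours. Its difference was -0.13 (SE 0.26) with all tumours and -0.44 without control 1. Ggps1, which makes the longer geranylgeranyl diphosphate used to anchor small GTPases, differed the other way, at 8.76, 8.97 and 8.77 against 9.02, 9.18 and 8.97 (difference 0.22, SE 0.13, limma adjusted p = 0.515). Its groups touched at 8.97, and its 4 probe sets ran from 0.16 to 0.43. The largest of these had values of 7.67, 7.50 and 7.60 in the controls and 7.92, 8.12 and 8.01 in the Bptf KD tumours, with no overlap (limma adjusted p = 0.225 with every probe set tested as a row of its own). The kinases Mvk (0.060) and Pmvk (0.030) and the decarboxylase Mvd (0.017) had differences no larger than 0.060, with SE from 0.16 to 0.17, and each changed sign in at least 1 alternative.

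In the squalene and post-squalene part all 11 genes were tested, with 8 negative and a median of -0.14. Msmo1, which removes methyl groups from the sterol ring, read 10.39, 10.38 and 11.14 in the controls and 10.29, 10.38 and 10.00 in the Bptf KD tumours. Control 3 stood alone above the other 5 (difference -0.41, SE 0.24, limma adjusted p = 0.522), and without it the difference was -0.16. Hsd17b7, which reduces the ketone formed as these methyl groups are removed, read 8.30, 7.55 and 8.55 against 7.85, 7.63 and 7.70. Only the tumour labelled control 2 fell below the Bptf KD tumours. The difference was -0.41 (SE 0.26, limma adjusted p = 0.571), and without that tumour -0.70, which passed (limma adjusted p = 0.0390, with 0.0390 to 0.862 over the alternatives). The tumour left out had the lowest Hsd17b7 of all 6 on this probe set. The second probe set read 7.56, 7.37 and 7.97 against 7.47, 7.06 and 7.59 (difference -0.26). Its groups overlapped with and without that tumour, since control 1 (7.56) lay below Bptf KD 3 (7.59). It was not tested without that tumour. Without control 3, the highest, the difference on the first probe set was -0.20.

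Lss, the cyclase that forms lanosterol, and Nsdhl, which works between Msmo1 and Hsd17b7, had the same order as Hsd17b7 among the controls. Lss read 8.24, 7.75 and 8.72 against 8.03, 7.69 and 7.83 (difference -0.39, SE 0.25; -0.63 without the tumour labelled control 2 and -0.15 without control 3), with -0.57 and 0.053 on its other probe sets. Nsdhl read 8.98, 8.42 and 9.33 against 8.78, 8.51 and 8.75 (difference -0.23, SE 0.24; -0.48 and -0.020 without the same tumours). In both, as in Hsd17b7, control 3 was highest and the tumour labelled control 2 lowest of the controls.

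Cyp51, the lanosterol demethylase, had its lowest control value in control 1, as did Idi1 and Fdps. It read 9.05, 10.13 and 10.07 in the controls and 9.35, 9.64 and 9.36 in the Bptf KD tumours (difference -0.30, SE 0.30, limma adjusted p = 0.731; -0.61 on its second probe set). It was -0.65 without control 1 and -0.11 without the tumour labelled control 2. Sqle, the epoxidase, read 9.82, 10.10 and 10.43 against 9.72, 10.20 and 10.02 (difference -0.14, SE 0.20). Tm7sf2, a sterol reductase, read 7.25, 7.95 and 7.79 against 7.44, 7.53 and 7.72 (difference -0.10, SE 0.20). The other 4 had small differences. Fdft1, squalene synthase, differed by 0.087 (SE 0.26) with 4 probe sets from 0.037 to 0.090, the isomerase Ebp by 0.077 (SE 0.14), the desaturase Sc5d by 0.023 (SE 0.18) and the reductase Dhcr7 by -0.030 (SE 0.14). Their 95% intervals were -0.53 to 0.70 for Fdft1, -0.26 to 0.41 for Ebp, -0.41 to 0.45 for Sc5d and -0.36 to 0.30 for Dhcr7.

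The enzymes differed more among the control tumours than between the groups. The mean of the 18 enzymes was 8.93, 9.12 and 9.47 in controls 1, 2 and 3, and 9.02, 9.04 and 9.05 in the Bptf KD tumours. The SD among controls was 0.27 and that among Bptf KD tumours 0.016, beside a difference between the group means of -0.14. Control 3 was the highest control in 14 of the 18 enzymes and the lowest in 0, while over all 9248 genes it was highest in 2069 and lowest in 2329. Control 1 was lowest in 11 enzymes and highest in 0, while over all 9248 genes it was lowest in 2969 and highest in 2861. The median difference between control 3 and control 1 was 0.51 for the enzymes and -0.010 for all genes. The median range over the 3 controls was 0.66 for the enzymes and 0.45 for all genes, and over the Bptf KD tumours 0.29 and 0.26. These are descriptions of 3 tumours in each group and were not tested.

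The count of negative enzymes moved with the control left out. It was 16 of 18 without control 1 (median -0.24), where 40.7% of all genes were negative. Without the tumour labelled control 2 it was 13 (median -0.048), where 44.0% of all genes were. Without control 3 it was 8 (median 0.028), where 39.3% of all genes were, the one setting in which most enzymes were positive. The epithelial list had the same order among the controls as the enzymes, with means of 11.1, 11.5 and 11.8 in controls 1, 2 and 3. In the Bptf KD tumours it was 11.7 to 11.9, close to control 3, while the enzyme means lay between those of controls 1 and 2. Its part in the order of the controls was not tested.

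**Figure D4:**
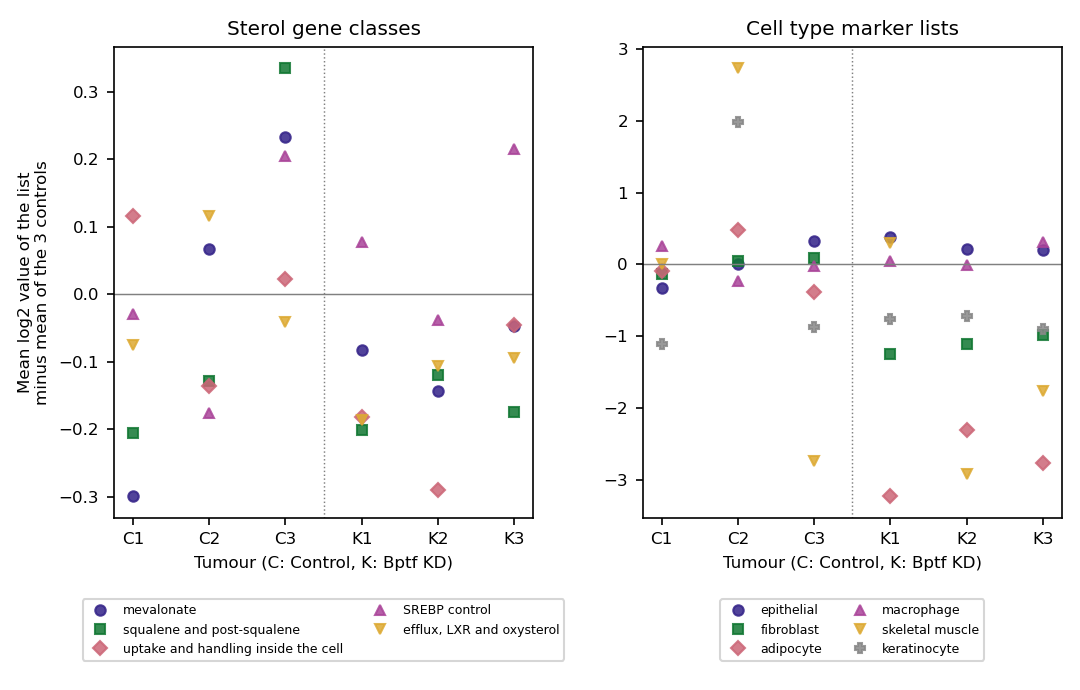
Mean log2 value of the tested genes of each sterol class (left) and of cell type marker lists (right) in each tumour, as the difference from the mean of the 3 controls. Among the sterol classes, both groups of enzymes run from low in control 1 to high in control 3 and lie close together in the Bptf KD tumours. On the right, the adipocyte and fibroblast lists are lower in all Bptf KD tumours, and the muscle and keratinocyte lists are highest in the tumour labelled control 2.

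A wider list of 54 genes around the pathway had 33 measured and 31 above the dim level. Limma called 0 of the 31, with 2 lower and 1 higher at an unadjusted p under 0.05 (9.68%, against 13.5% of all genes). The groups did not overlap in 8 of the 31 (25.8%, against 20.0% of all genes), 3 lower (Cyp7b1, Vldlr and Abcg4) and 5 higher (Dhdds, Rxra, Rce1, Lipa and Rnf145). Cyp7b1 and Vldlr had the largest differences of the list. Cyp7b1, which breaks down oxysterols, read 8.06, 9.21 and 8.84 in the controls and 7.35, 7.38 and 7.22 in the Bptf KD tumours. All Bptf KD tumours lay well below the lowest control, with a difference of -1.39 (SE 0.28, limma adjusted p = 0.0967). It passed without control 1 (limma adjusted p = 0.0185, a setting in which 0.789% of all genes passed) and without the tumour labelled control 2 (limma adjusted p = 0.0430), in a range over the alternatives from 0.0185 to 0.339. Vldlr, a receptor for triglyceride-rich lipoproteins, read 8.27, 8.30 and 7.96 against 7.63, 7.39 and 7.03 (difference -0.83, SE 0.19, limma adjusted p = 0.126). The adipocyte and fibroblast lists were lower in the same tumours, and their part in these 2 differences was not tested.

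Other branches of the wider list had smaller differences, none of which passed. In the isoprenoid branch 5 of 6 genes were positive (median 0.097), where 5511 of all 9248 genes were (median 0.060). Dhdds, a subunit of the enzyme that makes dolichol precursors, differed by 0.35 and Rce1, which trims prenylated proteins, by 0.31, both with groups that did not overlap (limma adjusted p = 0.346 and 0.412). Lbr, a sterol reductase that also anchors chromatin to the nuclear lamina, differed by -0.32. It was listed with Hsd17b12 (0.19), Cyb5r3 (-0.15) and Cyb5b (-0.19), which are not specific to sterol synthesis. Of these 4 genes 3 were negative, where 40.4% of all genes were. Of the 4 genes of SREBP processing and reductase turnover, those with the smallest p were the ubiquitin ligase Rnf145 (0.26) and the segregase Vcp (-0.17). Mbtps1 had the largest difference of the 4 (0.33, SE 0.37). Among carriers and lysosomal genes 8 of 11 were positive (median 0.14), where 5511 of all 9248 genes were (median 0.060). The sterol-binding protein Osbpl5 differed by 0.32, and Lrpap1 and Osbpl2 by 0.35 each. The LXR partner Rxra read 8.32, 7.92 and 8.15 against 8.37, 8.46 and 8.57 (difference 0.34, SE 0.14, limma adjusted p = 0.376). Its groups were separate by a narrow margin.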

How the data were processed

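RNA from 6 tumours was measured on Affymetrix arrays, 1 array per tumour, and the tumours are biological triplicates per the labels. The authors deposited log2 values of expression from RMA, per the submitters' processing notes, with no version. The base of the logarithm was read from the values (2.98 to 15.17). GEO's platform annotation named the probe sets, checked by Entrez identifier against RefSeq (GRCm38.p6), and no symbol changed. The groups were set against each other with lmFit and eBayes of limma 3.58.1 (R 4.3.3, no covariate) over 9248 genes, with Benjamini-Hochberg adjustment at 0.05. For single values the two-sided permutation test was exact and cannot go below 0.1 here. The procedure was tested on simulated data with changes larger than the difference of any member. That test does not show how often differences as small as those of the members are called. The number of arrays limits the precision. The sources used here do not tie each tumour to a mouse, and p-values measure only the spread between these samples.

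The members and lists were chosen with earlier results of these data known. Values per tumour were planned for members past the threshold in any setting and for the 2 members with the smallest p of each class, and of the wider list for up to 2 genes per branch. Values per tumour of other members were added after the data were seen. Alternatives were other filters on dim probe sets, the probe set of largest SD or the mean over a gene's probe sets, centring on medians, quantile normalisation applied again, trend and robust settings of eBayes, the replicate number as a block, each tumour left out, and, added later, every probe set as a row of its own. Deviations of same-numbered tumours 1, 2 and 3 correlated at 0.0054, 0.28 and 0.37 across genes. Those of tumours with unlike numbers correlated at -0.44 to 0.35. These values do not settle whether the numbers pair the tumours, so the block was kept as an alternative only. No protein sequences and no genome were used here.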

Additional observations from a re-analysis of the deposited data

How the results depend on the processing

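Over the alternatives that keep 1 value per gene, 18 of the 32 sterol genes kept their sign in each and 14 changed it in at least 1. With every probe set as a row of its own, Lss and Insig2 of the 18 also had a probe set of the opposite sign (0.053 and -0.030). Limma called 0 members in every alternative except without the tumour labelled control 2 (2 members). Leaving out 1 tumour at a time gave 0 to 2 members called, 0 to 1 genes of the wider list and 0 to 412 genes over all (0 without Bptf KD 3, 2 without Bptf KD 1, 6 without Bptf KD 2, 10 without control 3, 412 without the tumour labelled control 2). Over all genes, 42 rather than 75 passed with the stricter filter and 38 with every probe set as a row of its own. With the replicate number as a block 107 genes and 0 members passed, and no pairing was assumed. Signs turned by a second quantile normalisation in Pmvk (-0.024), Mvd (-0.0058), Sc5d (-0.027) and Cyp27a1 (-0.0058), by median centring in Cyp27a1 (-0.0033) and by the mean of all probe sets in Sc5d (-0.087). Leaving out 1 tumour at a time turned the sign, with differences of -0.070 to 0.20 for Mvk, -0.073 to 0.15 for Pmvk, -0.070 to 0.16 for Mvd, -0.44 to 0.038 for Fdps, -0.18 to 0.28 for Fdft1, -0.29 to 0.020 for Sqle, -0.31 to 0.043 for Tm7sf2, -0.037 to 0.18 for Ebp, -0.095 to 0.21 for Sc5d, -0.11 to 0.065 for Dhcr7, -0.11 to 0.087 for Abcg1, -0.32 to 0.062 for Nr1h3, -0.098 to 0.16 for Cyp27a1 and -0.22 to 0.17 for Ch25h. In the 18 that kept their sign the ranges were -0.45 to -0.17 for Hmgcs1, -0.83 to -0.25 for Idi1, 0.16 to 0.29 for Ggps1, -0.63 to -0.15 for Lss, -0.65 to -0.11 for Cyp51, -0.54 to -0.16 for Msmo1, -0.48 to -0.020 for Nsdhl, -0.70 to -0.20 for Hsd17b7, -0.61 to -0.43 for Lrp1, -0.64 to -0.56 for Scarb1, 0.34 to 0.59 for Mylip, -0.59 to -0.26 for Npc1, 0.18 to 0.42 for Npc2, -0.43 to -0.11 for Stard4, 0.027 to 0.39 for Srebf2, -0.34 to -0.047 for Scap, 0.16 to 0.26 for Insig2 and -0.52 to -0.38 for Abca1. Over the same settings the class medians ran from -0.073 to 0.055 for mevalonate enzymes, where the sign turned, -0.29 to -0.020 for squalene and post-squalene enzymes, -0.43 to -0.22 for uptake and handling, 0.027 to 0.22 for SREBP control and -0.22 to -0.018 for efflux, LXR and oxysterol genes. The cause of each change was not tested. With no detection calls, the background share of dim values is unknown.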
